A study of Mus musculus with 2 samples.

Results

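A set of 9 genes that act on osteoclast formation was followed here in sorted bone cells: Tnfsf11, Tnfrsf11b, Tnfrsf11a, Csf1, Il6, Lif, Osm, Tnf and Tnfsf14, 9 of the 32285 genes counted. They were chosen by name, as the secreted and receptor genes that could drive or curb bone resorption. To examine the postmenopausal state, osteal macrophages (Omacs) were taken from the femurs and vertebrae of ovariectomized (OVX) and sham-operated BALB/c female mice, 10 weeks old at surgery, 4 weeks after it. Both groups shared the same strain, sex, age and time after surgery. The cells of 20 mice for each condition were pooled, digested with trypsin and then overnight with collagenase, sorted with antibodies against CD11b, F4/80 and CD68, tagged by condition with hashtag antibodies and run as 1 droplet library. With 1 pool for each condition there was no replicate, so no test between OVX and sham is given, and every interval covers counting error only.

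Osteoclasts, the cells that resorb bone, form from myeloid precursors that receive a pair of signals. RANKL, encoded by Tnfsf11, binds its receptor RANK (Tnfrsf11a) on the precursor, and M-CSF (Csf1) keeps the precursor alive. Osteoprotegerin, the secreted product of Tnfrsf11b, is a decoy that captures RANKL and so curbs osteoclast formation. IL-6, LIF and oncostatin M (Osm) share the gp130 receptor subunit and act largely through osteoblasts and stromal cells, while TNF and LIGHT (Tnfsf14) are TNF family ligands that can promote osteoclast formation. Loss of estrogen is known to raise bone resorption, and several of these cytokines have been studied as its mediators.

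The library held 2349 barcodes and 17681092 UMIs (counted RNA molecules), with a median of 4387 UMIs in a barcode. By their hashtag counts 1059 barcodes were OVX, 981 sham, 78 positive for both tags and 231 for neither, against 1037 OVX and 1084 sham cells loaded. Although the cells are labelled macrophages, 4 of the 6 clusters had summed neutrophil markers of 169731 to 317033 UMIs per 1e+06 UMIs (CPM) and summed macrophage markers of 84.4 to 157 CPM. These neutrophil-like clusters are called cycling (384 cells), stefin-high (606 cells), Retnlg-high (469 cells) and Ccl4-high (618 cells) after leading genes. A cluster of 210 cells was stromal-like, with all 10 stromal markers and all 5 cartilage markers at 10 CPM or more, UMIs of 5 of 7 osteoblast markers (24.7 CPM summed; Bglap and Sost at 0) and of 7 of 11 macrophage markers (226 CPM summed; Adgre1, C1qa, C1qb and C1qc at 0). The last cluster, of 62 cells, was led by Ppbp, Ms4a8a, Pf4 and Arg1 and is called the Arg1 cluster without a cell type. It had 8 of 11 macrophage markers at 10 CPM or more, with C1qa, C1qb and C1qc at 0 and 8225 CPM summed. It also had 11 of 14 neutrophil markers at that level (26997 CPM summed) and 2 of 4 megakaryocyte markers (6913 CPM summed).

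The 9 genes, all protein-coding, were found by Ensembl identifier in the GENCODE M21 annotation of the GRCm38 genome. Tnfsf11 (ENSMUSG00000022015) lies on chromosome 14 at 78277445 to 78308043, Tnfrsf11b (ENSMUSG00000063727) on chromosome 15 at 54250619 to 54278484, and Tnfrsf11a (ENSMUSG00000026321) on chromosome 1 at 105780718 to 105847981. Csf1 (ENSMUSG00000014599) lies on chromosome 3 at 107741048 to 107760469, and Il6 (ENSMUSG00000025746) on chromosome 5 at 30013114 to 30019981. Osm (ENSMUSG00000058755; 4236420 to 4241026) and Lif (ENSMUSG00000034394; 4257557 to 4272514) are neighbors on chromosome 11. Tnf (ENSMUSG00000024401; 35199381 to 35202007) and Tnfsf14 (ENSMUSG00000005824; 57189492 to 57194177) are both on chromosome 17.

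Promoter sequence was shown for Lif, Csf1, Tnf and Tnfsf14, since the levels of Lif, Csf1 and Tnfsf14 differed between hashtags in the cells described later and Tnf differed in direction between clusters. Promoter windows from RefSeq (build GRCm38.p6) matched 7 of the 9 genes, the others being Osm and Tnfrsf11b. Each line gives reference bases before the RefSeq gene start, 5′ to 3′ on the gene's strand, with motif matches in capitals.
Lif, plus strand, chr11:4257318-4257556: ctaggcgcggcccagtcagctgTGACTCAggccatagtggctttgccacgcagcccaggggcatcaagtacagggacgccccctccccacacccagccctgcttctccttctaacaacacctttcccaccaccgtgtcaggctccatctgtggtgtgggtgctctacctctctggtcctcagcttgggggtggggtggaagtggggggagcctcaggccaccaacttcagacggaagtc
Csf1, minus strand, chr3:107760470-107760719: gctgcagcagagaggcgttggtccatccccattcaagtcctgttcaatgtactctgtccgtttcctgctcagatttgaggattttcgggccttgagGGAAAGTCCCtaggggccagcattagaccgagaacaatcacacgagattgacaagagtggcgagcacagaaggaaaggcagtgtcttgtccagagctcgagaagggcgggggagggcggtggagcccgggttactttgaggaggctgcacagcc
Tnf, minus strand, chr17:35202008-35202257: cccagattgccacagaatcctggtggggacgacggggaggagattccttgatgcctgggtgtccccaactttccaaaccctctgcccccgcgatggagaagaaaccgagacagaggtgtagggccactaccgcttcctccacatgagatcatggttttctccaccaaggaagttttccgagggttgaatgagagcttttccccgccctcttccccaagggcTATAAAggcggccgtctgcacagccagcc
Tnfsf14, minus strand, chr17:57194182-57194431: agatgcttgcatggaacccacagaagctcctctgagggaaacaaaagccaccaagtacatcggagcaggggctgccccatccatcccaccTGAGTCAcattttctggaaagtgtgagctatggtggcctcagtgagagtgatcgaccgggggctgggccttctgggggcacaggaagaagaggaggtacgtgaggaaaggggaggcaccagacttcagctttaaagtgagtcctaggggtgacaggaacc
The capitals mark an AP-1 match (TGANTCA) in Lif and in Tnfsf14, a match to the NF-kB consensus in Csf1 and a TATA box (TATAAA) in Tnf. Both strands were searched for 6 motifs in the 250 bases before each RefSeq start, which can differ from the gene start in the GENCODE annotation. Bases that GENCODE places inside the gene were left out of the printed lines, so that of Lif has 239. Of all 32851 windows of that length, 6.75% held the AP-1 motif, 3.90% the NF-kB consensus, 12.4% TATAAA, 1.55% the cyclic AMP response element (TGACGTCA), 7.02% the gamma-activated site (TTCNNNGAA) and 0.0639% the estrogen response element. The last 3 had no match in any of the 7 windows, which says only that those letters were not in them. Among the windows not shown, Il6 held an NF-kB and an AP-1 match, Tnfsf11 held TATAAA on the opposite strand, and Tnfrsf11a held none of the 6. A match describes letters and was not tested as a binding site, and the reference is not the BALB/c genome.

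RANKL was not detected. Tnfsf11 had 0 UMIs in all 2349 barcodes, which allows up to 0.170 CPM and up to 0.128% of cells with a UMI. The limit was 0.385 CPM in the 1059 OVX cells and 0.464 CPM in the 981 sham cells. In the stromal-like cluster, the only one with UMIs of the osteoblast markers Sp7, Ibsp, Alpl and Dmp1, 0 of 210 cells allows up to 1.43% of cells and 0.548 CPM. For the 38 OVX and 54 sham cells of that cluster the limits were 2.32 and 1.87 CPM. The Arg1 cluster, with 62 cells, has the loosest limit, 5.16 CPM. A difference between OVX and sham in RANKL was therefore not detectable at this depth.

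Osteoprotegerin RNA, by contrast, was abundant and lay almost wholly in the stromal-like cells. Tnfrsf11b had 5260 UMIs, of which 98.9% were in the stromal-like cluster, which held 31.0% of all UMIs. Its level there was 950 CPM (924 to 976, exact 95% Poisson interval), or 24.8 UMIs in an average cell. A UMI was found in 178 of 210 cells (84.8%, exact binomial interval 79.2 to 89.3%), and in 43.9% of cells after each cell was thinned to 1000 UMIs. In the neutrophil-like clusters the level was 4.39 to 6.02 CPM, and the Arg1 cluster had 0 UMIs in 62 cells. The stromal-like cells are also the deepest, with a median of 19996.5 UMIs against 2646 to 7828 in the other clusters.

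Free RNA in droplets gives all cells a little of an abundant transcript, and the UMIs of Tnfrsf11b outside the stromal-like cluster were, in sum, close to that background. From 8 stromal reference genes (Dcn, Lum, Prg4, Col1a1, Col1a2, Col3a1, Prrx1 and Abi3bp), 60.0 UMIs were expected outside the cluster if all came from it, and 60 were counted. Pooling the reference genes gave 50.4 expected. Each cluster has its own median factor, so the expectations by cluster do not add up to 60.0. In cycling cells 21 UMIs were counted against 8.75 expected (11.3 from the pooled genes). In Ccl4-high cells 11 were counted against 4.50 (10.9 pooled), and in stefin-high and Retnlg-high cells 19 against 21.9 and 9 against 9.15. Csf1 and Lif were above this background: 301 UMIs of Csf1 were counted against 43.5 expected (6.92 times), and 41 UMIs of Lif against 9.80 expected (4.18 times). For Csf1 the excess was in each of the 4 neutrophil-like clusters, from 28 UMIs against 6.63 in Retnlg-high cells to 157 against 15.9 in stefin-high cells.

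**Figure D1:**
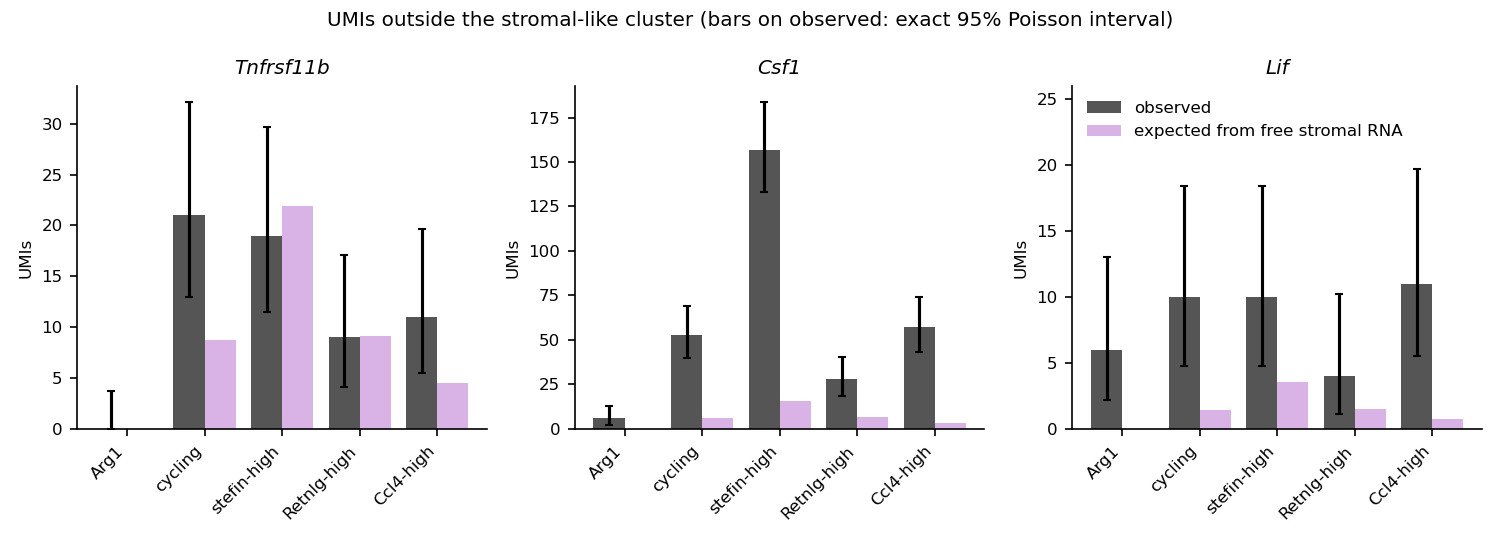
Counted UMIs (dark bars, with exact 95% Poisson intervals) and UMIs expected from free stromal RNA (light bars) for Tnfrsf11b, Csf1 and Lif in the 5 clusters other than the stromal-like one; y axes are UMIs and differ between panels. In stefin-high cells Tnfrsf11b stands at 19 UMIs against 21.9 expected and Csf1 at 157 against 15.9.

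RANK, the receptor, was rare. Tnfrsf11a had 21 UMIs in 18 cells, or 1.19 CPM (0.735 to 1.82). Of these UMIs, 10 were in 10 of the 62 Arg1 cells (16.1%, interval 8.02 to 27.7%; 17.2 CPM), 9 in 6 cycling cells and 2 in 2 stefin-high cells. No UMI was found in the stromal-like, Retnlg-high or Ccl4-high clusters, with limits of 0.548, 1.46 and 1.53 CPM. After thinning, 1 of 61 Arg1 cells and 1 of 352 cycling cells still had a UMI. Csf1r, the M-CSF receptor that marks the same precursors, was also highest in the Arg1 cluster, at 97.9 CPM against 4.02 to 13.8 CPM in the other clusters, and 57 of its 200 UMIs were there.

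M-CSF RNA was mostly stromal, with a myeloid share that depended on depth. Csf1 had 4067 UMIs, of which 92.6% were in the stromal-like cluster at 688 CPM (666 to 710). After each cell was thinned to 1000 UMIs, 66.1% of its UMIs were in that cluster. Csf1 was found in 75.7% of the stromal-like cells, and in 33.3% after thinning. Outside the cluster the order of levels was stefin-high (38.0 CPM, 32.3 to 44.4), Ccl4-high (29.1, 22.1 to 37.7), cycling (15.2, 11.4 to 19.9), Retnlg-high (13.7, 9.08 to 19.7) and Arg1 (10.3, 3.78 to 22.4). Counting intervals of neighbors in this order overlap, except between the Ccl4-high and cycling clusters. Csf1 was found in 14.7% of stefin-high cells (3.77% thinned), against 3.14% (0.898% thinned) for Tnfrsf11b, which marks the background in the same cells.

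The gp130 cytokines were divided between the stromal-like and the myeloid cells. Lif keeps stem cells undifferentiated and acts on osteoblasts. It had 890 UMIs, with 95.4% of them (84.1% after thinning) in the stromal-like cluster at 155 CPM (145 to 166). It was found in 51.4% of those cells (12.6% thinned), and its UMIs were uneven: 12 cells held 50% of the cluster's UMIs and the highest held 104. Tnfrsf11b and Csf1 were spread more widely, with 31 and 20 cells holding 50% of their UMIs in the cluster. In single stromal-like cells the levels of the 3 genes were only weakly related, with Pearson correlations of 0.09 (Tnfrsf11b and Csf1), 0.15 (Tnfrsf11b and Lif) and 0.17 (Csf1 and Lif) over 210 cells that share a library and differ in depth.

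Osm had the opposite distribution. Of its 1391 UMIs, 98.6% were outside the stromal-like cluster, where the level was 3.65 CPM (2.23 to 5.64). The Arg1 cluster was highest at 462 CPM (409 to 521), followed by Ccl4-high at 170 CPM (152 to 189), Retnlg-high at 122 CPM (107 to 138), stefin-high at 71.2 CPM (63.3 to 79.8) and cycling at 64.8 CPM (56.7 to 73.9). Each step of this order lies outside the counting intervals, except the last between stefin-high and cycling cells. Osm was found in 75.8% of Arg1 cells (26.2% thinned), in 27.1 to 32.2% of the cells of the neutrophil-like clusters and in 7.62% of stromal-like cells (0% thinned), which serve as the background. After thinning, the shares of the neutrophil-like clusters were 4.55% (cycling), 5.03% (stefin-high), 12.4% (Retnlg-high) and 15.3% (Ccl4-high). The level in the Arg1 cluster depended on where that small cluster was drawn, and was 157 to 467 CPM over the 6 other ways of clustering, filtering or thinning the cells. With the listed genes left out of the clustering it was 157 CPM against 162 CPM in Ccl4-high cells, so the first place was then lost.

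IL-6 RNA was scarce, with 24 UMIs in 12 cells (1.36 CPM, 0.870 to 2.02). The Arg1 cluster held 14 of these UMIs in 6 cells (24.1 CPM, 13.2 to 40.4), the stromal-like cluster 7 in 3 cells and the cycling cluster 3 in 3 cells. The stefin-high, Retnlg-high and Ccl4-high clusters had 0 UMIs, with limits of 0.726, 1.46 and 1.53 CPM.

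**Figure D2:**
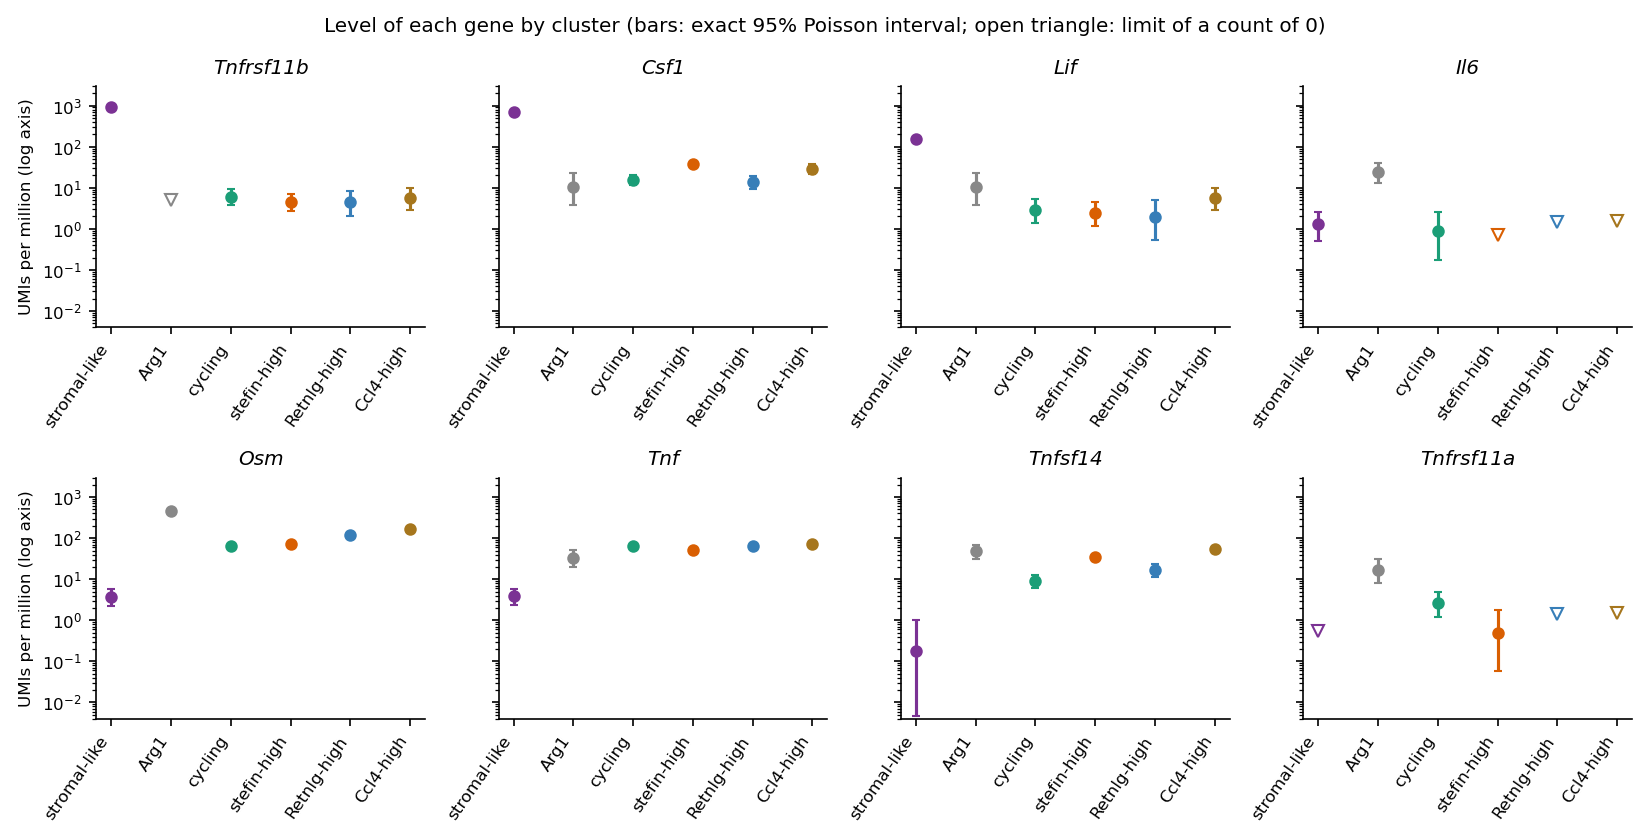
Level of the 8 detected genes in the 6 clusters, in CPM on a log axis shared by all panels; points are summed levels, bars exact 95% Poisson intervals and open triangles the limit of a count of 0. Tnfrsf11b, Csf1 and Lif peak in the stromal-like cells (950, 688 and 155 CPM), while Osm and Il6 peak in the Arg1 cluster (462 and 24.1 CPM).

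The receptors of these cytokines were mostly stromal, on the other side from Osm and on the same side as Lif. Osmr, the oncostatin M receptor, had 376 of its 386 UMIs in the stromal-like cluster (68.7 CPM), and Lifr 67 of 76 (12.2 CPM). Il6st, which encodes gp130, had 864 of 949 UMIs there (158 CPM), with a second peak of 68.7 CPM in the Arg1 cluster. Il6ra, the ligand-binding IL-6 receptor, was instead myeloid, with 1189 of 1211 UMIs outside the stromal-like cluster and 150 CPM in Ccl4-high cells. Lgr4, a further receptor for RANKL, had 75 of 79 UMIs in the stromal-like cluster.

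The TNF family ligands were myeloid. Tnf, the inflammatory cytokine that can act on precursors together with RANKL, had 752 UMIs, 97.2% of them outside the stromal-like cluster. Its level was 72.0 CPM (60.6 to 84.9) in Ccl4-high, 64.9 in Retnlg-high, 64.8 in cycling and 51.3 CPM (44.6 to 58.7) in stefin-high cells, followed by 32.7 CPM (19.7 to 51.0) in the Arg1 cluster and 3.84 CPM (2.38 to 5.86) in stromal-like cells. The levels of the Ccl4-high, Retnlg-high and cycling clusters were within each other's counting intervals. The Arg1 level of Tnf was 0 CPM after thinning and 55.6 CPM with the listed genes left out of the clustering, so its place was not settled.

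Tnfsf14 had 340 UMIs, of which 1 was in a stromal-like cell. It was highest in Ccl4-high cells (53.6 CPM, 43.9 to 64.9) and the Arg1 cluster (48.1, 32.0 to 69.5), and lower in stefin-high (33.9, 28.5 to 40.0), Retnlg-high (16.6, 11.5 to 23.2) and cycling cells (9.18, 6.28 to 12.96). The Arg1 level was 21.3 to 29.5 CPM under 4 other ways of clustering or filtering, 48.6 CPM with 30 neighbors and 82 CPM after thinning, so its place in this order was not settled. Tnfrsf1a and Tnfrsf1b, the TNF receptors, were found in each cluster at 58.8 to 114 CPM and 33.6 to 201 CPM. Ltbr, a LIGHT receptor, was also found in each cluster, at 9.27 to 30.5 CPM, while Tnfrsf14, the other LIGHT receptor, had 17 UMIs in all.

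**Figure D3:**
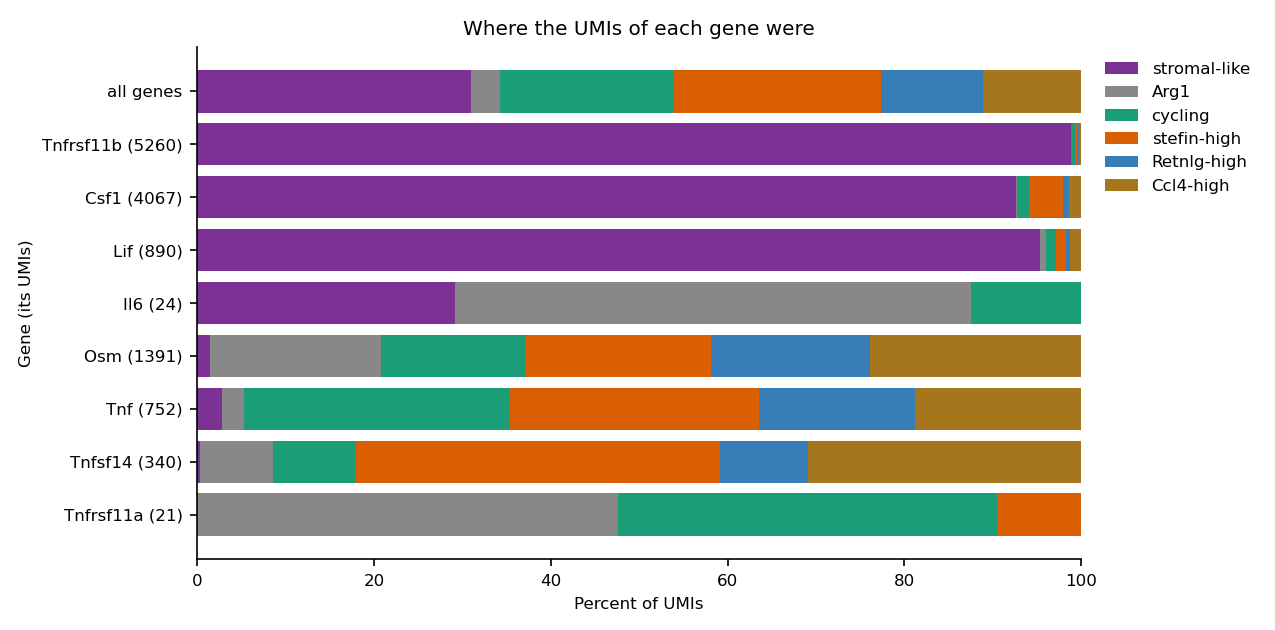
Percent of each gene's UMIs in each of the 6 clusters, with the share of all genes' UMIs in the top bar and the gene's UMI total in brackets; the x axis is percent of UMIs. The stromal-like cluster holds 31.0% of all UMIs but 98.9, 92.6 and 95.4% of those of Tnfrsf11b, Csf1 and Lif. It holds 1.44, 2.79 and 0.294% of those of Osm, Tnf and Tnfsf14. After thinning to 1000 UMIs per cell (not drawn), the shares of Tnfrsf11b, Csf1 and Lif were 94.2, 66.1 and 84.1%.

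Groups of the 9 genes could thus be told from their place: 3 genes (Tnfrsf11b, Csf1 and Lif) had over 50% of their UMIs in the stromal-like cluster, 3 genes (Osm, Tnf and Tnfsf14) had over 97% outside it, and Tnfsf11, Tnfrsf11a and Il6 had under 30 UMIs each. A stromal share above 50% was common, at 41.7% of the 8532 genes with 100 UMIs or more, and a share above 90% was found for 7.77%. How many genes had over 97% of their UMIs outside the cluster was not counted. That placement is therefore not read as particular to Osm, Tnf and Tnfsf14. Since clusters were made from the same cells, these levels are a description.

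Between conditions, the 6 genes that reached 10 CPM in either condition were compared over all cells as the ratio of OVX to sham CPM. Tnfsf14 was 2-fold or more higher in OVX, where 1.74% of the 7170 genes at that level were, and Lif was 2-fold or more lower, where 4.07% were. The median log2 ratio was -0.33 over the 6 genes and -0.23 over all genes. The clusters differed in their share of OVX cells, from 461 of the OVX and 112 of the sham cells in stefin-high to 99 and 311 in Retnlg-high, so ratios within clusters are given after those over all cells. Summed markers of macrophages (308 CPM with the OVX tag, 684 CPM with the sham tag), dendritic cells (145 and 14.6 CPM) and megakaryocytes (134 and 469 CPM) also differed, and their part in the ratios over all cells was not tested. Fewer cells of a type and less RNA in each cell cannot be told apart in these pooled sums.

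Within single clusters, 3 calls at 2-fold were made among these genes, each read against the share of all genes called. In stromal-like cells 3 of the 9 genes reached 10 CPM, and none was higher (3.46% of 8040 genes) and 1, Lif, lower (3.05%). Of 4 genes at that level in stefin-high cells, 1 was higher, Tnfsf14 (8.52% of 5683 genes), and none lower (8.06%). In the Arg1 cluster 7 reached that level, and 1 was higher, Csf1 from 3 UMIs in each condition (16% of 7961 genes), and none lower (16.5%). No call was made among the 4 genes tested in cycling (3.25% higher and 5.91% lower of 6932 genes), Retnlg-high (8.36 and 5.41% of 5491) or Ccl4-high cells (10.2 and 4.53% of 5627).

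LIGHT RNA was higher in OVX cells. Tnfsf14 had 238 UMIs in OVX cells (30.5 CPM, 26.8 to 34.7) and 82 in sham cells (12.7 CPM, 10.1 to 15.8), a ratio of 2.41 (1.86 to 3.13), the 80th from the highest among 7170 genes. The share of cells with a UMI was 15.9% (OVX) and 6.83% (sham), or 3.86% of 1011 and 2.23% of 896 cells after thinning. In stefin-high cells it had 133 UMIs in 461 OVX cells (38.1 CPM) and 2 UMIs in 112 sham cells (4.14 CPM), a ratio of 9.19 (2.496 to 76.7). The sham cells of that cluster were shallow, with a median of 2074.5 UMIs against 6108 in OVX, and after thinning the shares of cells with a UMI were 2.71 and 1.19%. Over 9 alternatives the stefin-high ratio ran from 2.28 (after thinning) to 21.6 (30 neighbors), and was 4.63 with equal weight per cell. Ratios above 1 were also found in Ccl4-high (71 and 29 UMIs; 1.60, 1.03 to 2.56), Retnlg-high (13 and 18 UMIs; 1.97, 0.887 to 4.25) and cycling cells (16 and 16 UMIs; 1.58, 0.739 to 3.37), of which only the first interval leaves out 1. In the Arg1 cluster the ratio was 0.665 (0.192 to 1.88), from 5 and 17 UMIs. Thinning, or giving each cell the same weight, took Tnfsf14 over all cells below 2-fold, to 1.65 and 1.89.

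Lif was lower in OVX cells. Over all cells 123 UMIs were counted in OVX (15.8 CPM, 13.1 to 18.8) and 399 in sham (61.7 CPM, 55.8 to 68.1), a ratio of 0.255 (0.207 to 0.313), the 21st from the lowest among 7170 genes. The stromal-like cluster held 1294160 of the 7798694 OVX UMIs and 1602909 of the 6462258 sham UMIs. The part of this unequal share in the ratio over all cells was not tested. Within the cluster, 38 OVX cells had 101 Lif UMIs (78.0 CPM, 63.6 to 94.8) and 54 sham cells 383 (239 CPM, 216 to 264). The ratio there was 0.327 (0.260 to 0.408). Without the 1, 3 or 5 cells with the most Lif UMIs in each condition the ratio was 0.338, 0.360 and 0.375. The median stromal-like cell had 13.1 CPM in OVX and 71.7 CPM in sham, and 18 of 38 and 19 of 54 cells had no UMI. Outside the stromal-like cluster the Lif levels were 3.38 CPM (OVX, 22 UMIs) and 3.29 CPM (sham, 16 UMIs).

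Of the 210 stromal-like cells, 112 passed neither hashtag cutoff, against 119 of the 2139 cells outside the cluster. The comparison within the cluster therefore rests on 38 OVX and 54 sham cells. Over all clusters, the 231 barcodes under both cutoffs had median counts of 55 for the OVX tag and 773 for the sham tag. These 112 cells had Tnfrsf11b at 1073 CPM (1032 to 1115), Csf1 at 739 CPM (705 to 774) and Lif at 137 CPM (123 to 153), the last between the OVX and sham levels. Under a looser rule (at least 80% of at least 10 hashtag UMIs) the cluster had 28 OVX and 113 sham cells, and the Lif ratio was 0.426 (0.331 to 0.541).

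Osteoprotegerin and M-CSF in stromal-like cells differed less between hashtags. For Tnfrsf11b, 1257 UMIs were counted with the OVX tag (971 CPM, 918 to 1027) and 1205 with the sham tag (752 CPM, 710 to 795), a ratio of 1.29 (1.19 to 1.40). Without the 3 highest cells of each condition this was 1.06 (0.968 to 1.17), so a few cells decide it. For Csf1, 826 UMIs were found with the OVX tag (638 CPM, 596 to 683) and 1115 with the sham tag (696 CPM, 655 to 738), a ratio of 0.918 (0.838 to 1.005). Neither gene was near 2-fold. Over all cells the ratios of Tnfrsf11b and Csf1 were 0.877 (0.810 to 0.949) and 0.724 (0.666 to 0.788), and under the looser hashtag rule 0.492 and 0.475. That rule put 28 OVX and 113 sham cells in the stromal-like cluster, and the part of this in the 2 ratios was not tested.

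**Figure D4:**
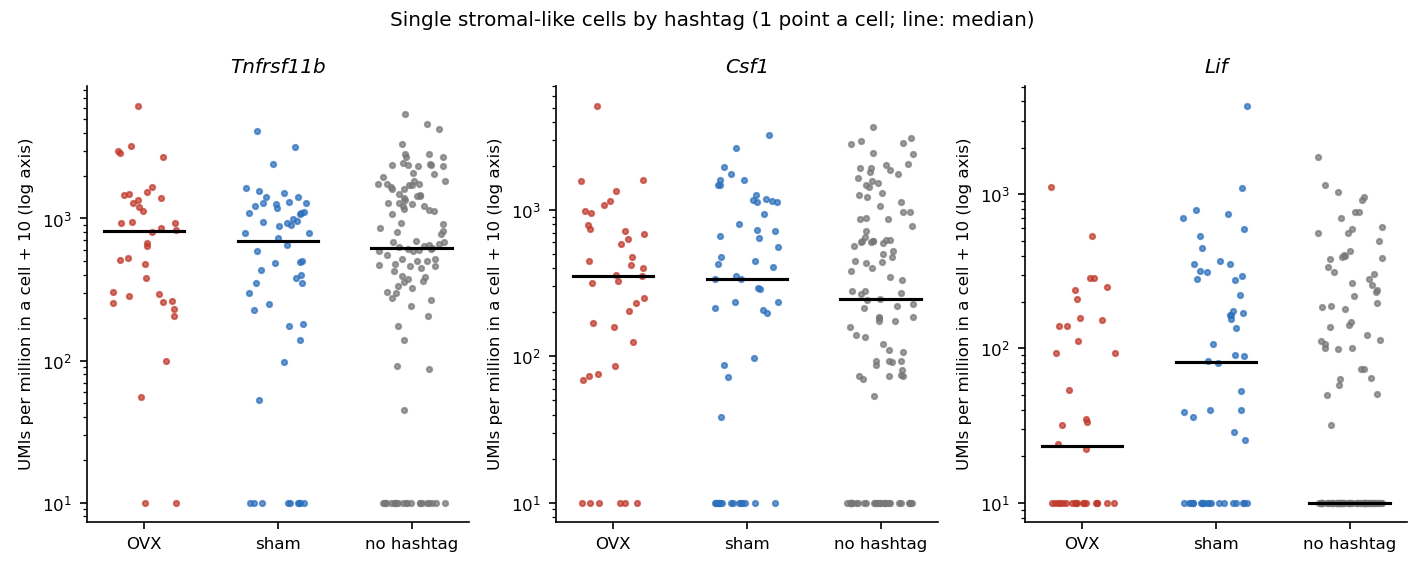
Level of Tnfrsf11b, Csf1 and Lif in each of the stromal-like cells with an OVX tag (38 cells), a sham tag (54 cells) or no tag above its cutoff (112 cells), as CPM plus 10 on a log axis; 1 point is a cell and the line is the median. The OVX and sham cells overlap for each gene, and the Lif medians are 13.1 and 71.7 CPM.

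Outside the stromal-like cluster, Csf1 was higher in OVX cells, at 32.9 CPM (28.6 to 37.6; 214 UMIs) against 15.4 CPM (12.1 to 19.4; 75 UMIs), a ratio of 2.13 (1.63 to 2.81). Of 6149 genes at 10 CPM or more in these cells, 1.95% were 2-fold or more higher in OVX, and Csf1 and Tnfsf14 were among them. None of the 4 members tested was 2-fold or more lower, against 7.24% of these genes. Within the neutrophil-like clusters the ratios of Csf1 were smaller: 1.79 (0.968 to 3.66) in stefin-high, 1.53 (0.597 to 3.69) in Retnlg-high, 1.40 (0.761 to 2.54) in cycling and 1.27 (0.714 to 2.34) in Ccl4-high cells, each with an interval that holds 1. Over 9 alternatives the stefin-high ratio ran from 1.26 (barcode filter) to 2.48 (equal weight per cell). Under the looser hashtag rule it was 1.81 (1.004 to 3.59), an interval that leaves out 1. In the Arg1 cluster the ratio was 2.26 (0.303 to 16.9), from 3 UMIs in each condition. Stefin-high cells, the myeloid cluster with the highest Csf1 level, were 461 of the OVX and 112 of the sham cells, and their part in the pooled ratio was not tested.

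Osm was lower in OVX cells in several clusters. Over all cells 607 UMIs were counted in OVX (77.8 CPM, 71.8 to 84.3) and 701 in sham (109 CPM, 101 to 117), a ratio of 0.718 (0.643 to 0.801). The ratio was 0.551 (0.380 to 0.780) in Retnlg-high, 0.692 (0.552 to 0.868) in Ccl4-high and 0.699 (0.510 to 0.949) in cycling cells. It was 1.08 (0.746 to 1.61) in stefin-high and 1.10 (0.837 to 1.43) in Arg1 cells. None of these passed 2-fold, but the Retnlg-high ratio did under 3 alternatives (0.480 under the looser hashtag rule, 0.476 with equal weight per cell and 0.473 with 30 neighbors). Some other settings gave no separate Retnlg-high cluster, and the ratios there are those of merged groups. With 1000 variable genes the ratio was 0.683, in 1046 cells that were also the best match of the Ccl4-high cluster. With the listed genes left out (546 cells) and with Leiden clustering (580 cells) it was 0.722 and 0.732. Both of these groups were also the best match of the cycling cluster. After thinning, the ratio of the Retnlg-high cluster was 0.796, outside the counting interval. The direction in stefin-high cells was not stable, at 0.637 with equal weight per cell, 0.570 after thinning and 2.55 with Leiden clustering.

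The Tnf ratio over all cells had an interval that holds 1, and its direction differed between clusters. The counts were 391 UMIs for OVX (50.1 CPM, 45.3 to 55.4) and 300 for sham (46.4 CPM, 41.3 to 52.0), a ratio of 1.08 (0.927 to 1.26). In cycling cells OVX was higher (82.7 against 51.9 CPM; 1.59, 1.19 to 2.13), and in stefin-high cells lower (46.7 against 72.5 CPM; 0.644, 0.445 to 0.956). With Leiden clustering the stefin-high ratio was 1.14, so the direction there depended on how the cells were grouped. Leiden clustering gave no separate cycling cluster, since the best match was 580 cells that were also the best match of the Retnlg-high cluster. The same held with the listed genes left out of the clustering, where 546 cells matched both and their Tnf ratio was 1.1. The Retnlg-high and Ccl4-high ratios were 1.07 (0.705 to 1.58) and 1.15 (0.804 to 1.66).

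For RANK, 6 UMIs in OVX cells (0.769 CPM) and 14 in sham cells (2.17 CPM) gave a ratio of 0.355 (0.112 to 0.984). With so few molecules, and 0.483 (0.154 to 1.32) under the looser hashtag rule, this is at the edge of counting error. Il6 rests on 9 OVX and 15 sham UMIs, a ratio of 0.497 (0.192 to 1.21).

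**Figure D5:**
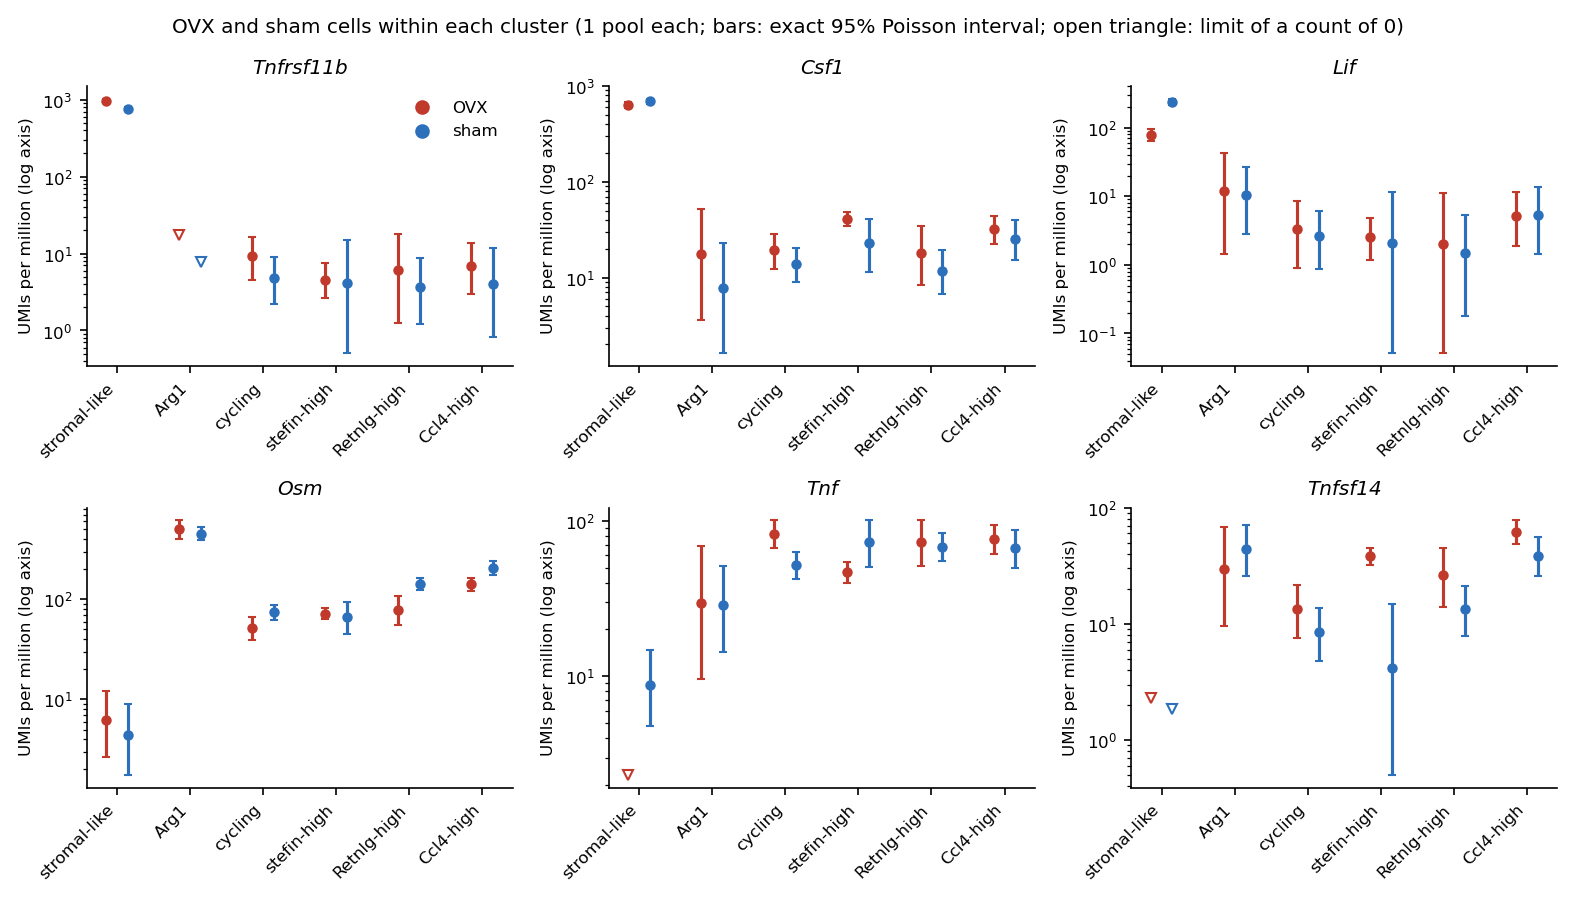
OVX (red) and sham (blue) levels of 6 genes within each cluster, in CPM on log axes that differ between panels; bars are exact 95% Poisson intervals, open triangles the limit of a count of 0, and each condition is 1 pool. The clearest gaps are Lif in stromal-like cells (78.0 against 239 CPM) and Tnfsf14 in stefin-high cells (38.1 against 4.14 CPM). The sham value of Tnfsf14 there rests on 2 UMIs and lies under the 6.22 CPM that a count of 0 allows.

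For each gene with 100 UMIs or more, the genes most like it over the 12 groups of cluster and condition were found by the Pearson correlation of log2(CPM + 1). The nearest were Loxl2 for Tnfrsf11b (0.991), Pax1 for Csf1 (0.977), Rora for Lif (0.972), Clic1 for Osm (0.978), Gsdmd for Tnf (0.966) and Slfn8 for Tnfsf14 (0.988). These groups share a library, differ in depth and are described with no test.

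Other genes of the pathway were counted in the same way over all cells. Of the 10 receptors of these cytokines, 7 were at 10 CPM or more and none passed 2-fold in either direction, and the same was true of 9 of 17 further ligands that raise osteoclast formation and 6 of 13 osteoclast effectors. Of 18 genes listed as curbing osteoclast formation, 6 were at that level and none was higher (1.74% of all genes). Of these, 2 were lower in OVX (4.07%), Csf2 and Csf3, which encode the growth factors GM-CSF and G-CSF. In stromal-like cells, where 3.05% of all genes were 2-fold or more lower, Csf2 had 13 UMIs in OVX and 167 in sham (0.0964, 0.0503 to 0.169). Csf3 had 0 and 108 UMIs there, 29.1-fold lower if the 0 is taken as 3 counts. Of 23 genes of RANK and M-CSF signalling, 21 were at that level, and Sirpb1a was higher in OVX (2.45, 1.78 to 3.44). Calcr, the calcitonin receptor that marks osteoclasts, had 0 UMIs. Of the 18 genes on the list of curbs, 6 (Il4, Il10, Il13, Ifng, Ifnb1 and Wnt5a) were at 0. Not all genes on that list, Wnt5a and Csf3 among them, act only as curbs, and their role here was not tested. Of 6 hormone receptors, 1 was at 10 CPM and did not pass 2-fold. In single clusters, some receptors, further ligands and effectors did pass 2-fold. Among receptors, Csf1r was higher in OVX in stefin-high (8.52% of genes) and Ccl4-high cells (10.2%), and Ltbr in Retnlg-high cells (8.36%). Lifr was lower in stromal-like cells (3.05%) and higher in Arg1 cells (16%), where Il6st was lower (16.5%). Of 8 further ligands at 10 CPM in stefin-high cells, Ltb, Ccl3, Ccl4 and Ptgs2 were higher in OVX (8.52% of genes) and none lower. Ccl4 was lower in Retnlg-high, Ccl4-high and Arg1 cells, Ccl5 in Ccl4-high cells and Ptgs2 in cycling cells. Ccl4 was higher in stromal-like cells (3.46%) and Ltb in Arg1 cells (16%). Of the effectors, Acp5 was higher in cycling cells (3.25%), and Itgb3 was lower in stromal-like (3.05%) and Ostm1 in Ccl4-high cells (4.53%). Of 9 effectors in the Arg1 cluster (16 OVX and 41 sham cells), Acp5, Ctsk, Mmp9 and Ocstamp were higher (16%) and Atp6v0d2 lower (16.5%). A count of 0 in this cluster allows up to 17.6 CPM with the OVX tag, above the 10 CPM needed for a call, and 7.80 with the sham tag. Calls there can therefore rest on few UMIs: Lifr had 3 in the whole cluster and Ltb 9, against 40 for Il6st and 312 for Ccl4. Whether the effectors differ beyond counting error was not tested.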

How the data were processed

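UMI counts for genes and hashtags were deposited by the authors as 1 filtered matrix of 1 Chromium 3′ v3.1 library, raw and not normalized; reads were aligned to mm10 and counted with Cell Ranger, version 6.0.1 in the study's methods and the submitters' processing notes and 6.0.0 in the file header. The second sample, a hashtag library, was not analysed here. Depth was 500 to 141565 UMIs a barcode. The members and gene lists were chosen with earlier results of these data known. Condition came from hashtag counts (HTODemux in Seurat 5.3.0, R 4.3.3, positive quantile 0.99); barcodes with both tags were left out of OVX and sham, and doublets within a tag were not called. Clusters were made with scanpy 1.11.5 (2000 variable genes, 30 components, 15 neighbors, Louvain at resolution 0.3, seed 0); 4 of the 9 members were among the variable genes. CPM were summed UMIs per 1e+06 UMIs, with exact 95% Poisson intervals. Ratios carry exact conditional binomial intervals, and shares Clopper-Pearson intervals. A count of 0 allows 3 counts. A gene was called at 2-fold where 1 condition reached 10 CPM. The expectation from free RNA was the gene's stromal UMIs times the median of 8 reference ratios. Named genes were the members, listed genes past 2-fold at 10 CPM, receptors, and the 3 genes most like each member, of which the first is printed. Ratios and intervals were tested on simulated Poisson sums, which does not cover uneven counts between cells. Alternatives were the hashtag rule, barcode filter (500 genes, 10% mitochondrial), cell weight, thinning to 1000 UMIs (171 shallower cells left out), top cells, the CPM minimum, and the clustering. CPM sums do not separate free RNA from cell RNA, and a 3′ kit counts molecules by their ends. A result on 1 listed gene is not reported here.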

Additional observations from a re-analysis of the deposited data

Results flagged for a closer look

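Tnf was singled out because OVX and sham cells differed in opposite directions in different clusters, a difference between clusters that was not tested. The OVX to sham ratio was 1.59 (1.19 to 2.13) in cycling cells and 0.644 (0.445 to 0.956) in stefin-high cells. In stromal-like cells it was 0 (0 to 0.373), from 0 UMIs in OVX and 14 in sham. Under the looser hashtag rule the stromal-like ratio was 0 (0 to 0.712), from 0 against 18 UMIs. The sham stefin-high cells were fewer (112 against 461) and shallower (median 2074.5 against 6108 UMIs), and the part of depth in the Tnf ratio was not tested. When cells were grouped by Leiden clustering the stefin-high ratio was 1.14, and cycling and Retnlg-high cells shared 1 best match of 580 cells, with a ratio of 1.12. With the listed genes left out they shared 1 best match of 546 cells, with a ratio of 1.1.

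Stromal-like cells that passed neither hashtag cutoff were given no condition and hold signal well above the limit of a count of 0 (1.25 CPM). They were not shown to be neutral: the looser hashtag rule took the cluster's sham cells from 54 to 113 and its OVX cells from 38 to 28. Their 112 cells had Tnfrsf11b at 1073, Csf1 at 739 and Lif at 137 CPM.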

How the results depend on the processing

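Of 227 values recomputed under alternatives for 34 results, 174 stayed within a set range, 52 left it and 1 value past 2-fold changed sign. The range was the counting interval for ratios and percents, and a fixed fold for numbers of members and CPM levels. The value that changed sign was the log2 ratio of Lif over all cells. It was -1.97 and became 0.04 without the stromal-like cluster, which holds 95.4% of the UMIs of Lif. The number of members 2-fold or more higher in OVX was 1, and became 0 with equal weight per cell, 0 after thinning and 2 without the stromal-like cluster. The number 2-fold or more lower was 1, and became 3 under the looser hashtag rule, 3 with no filter on low values and 0 without the stromal-like cluster. Of 150 log2 ratios, past 2-fold or not, 9 changed sign, among them Tnfrsf11b (0.58) and Csf1 (from -0.47 to 1.09, with both counting intervals off 0) without the stromal-like cluster and Osm in stefin-high cells with equal weight per cell (-0.65). The cause was not tested, other than the cells left out. The 3 members with over 50% of their UMIs in the stromal-like cluster were 3 under each of the 6 alternatives run. Tnfsf11, Tnfrsf11a and Il6 are limited by depth, and the sham stefin-high and Arg1 cells by their number. No paired analysis was possible because there was 1 library with 1 pool per condition.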

Other observations

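Stromal-like cells often held more than 1 of their 3 genes. Of the 210 cells, 81 (38.6%) had UMIs of Tnfrsf11b, Csf1 and Lif together, 89 had 2 of them, 24 had 1 and 16 had none. After thinning to 1000 UMIs, 7 of 198 cells had all 3 and 67 had none. Among the other 2139 cells, Osm, Tnf and Tnfsf14 were found together in 39 cells (1.82%), and 1073 cells had none of them. In the Arg1 cluster 5 of 62 cells (8.07%) had all 3 and 9 had none.

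Receptors for the hormone removed by the surgery were scarce. Esr1, the estrogen receptor alpha gene, had 37 UMIs, 27 of them in cycling cells, and Esr2 had 1 UMI.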
